A study of Homo sapiens with 6 samples.

Results

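Epithelial-mesenchymal transition (EMT) is the change in which cells give up the junctions and polarity of an epithelium and take on a motile, mesenchymal state. The 10 genes described here are 8 transcription factors that govern this change and 2 cadherins by which its outcome is usually read. They were taken by name from a table of 25275 entries, and each had 1 entry on a main chromosome. Expression was given for 6 libraries of human ovarian cancer cell lines, in FPKM, a level that corrects fragment numbers for transcript length and sequencing depth.

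Of the 6 libraries, 4 came from the line A2780 and 2 from the line OVCAR3. In A2780 the cultures carried a scrambled shRNA (A2780-scrambled shRNA), an shRNA against COL11A1 (A2780-shCOL11A1) or a COL11A1 transgene (A2780-COL11A1), and the fourth was A2780CIS, selected for cisplatin resistance by long exposure to the drug. In OVCAR3 the cultures carried GFP (OVCAR3-GFP) or COL11A1 (OVCAR3-COL11A1). The series sets A2780CIS, A2780-COL11A1 and OVCAR3-COL11A1 (COL11A1-high, replicates 1, 2 and 3) against A2780-scrambled shRNA, A2780-shCOL11A1 and OVCAR3-GFP (COL11A1-low, replicates 1, 2 and 3), to find mRNAs that go with the collagen gene. These numbers follow the order of deposition and pair no libraries. The promoters of the transgenes, and whether the cultures were clones or pools, are not given in the sources used here; no overexpression control of A2780 is among the 6, and both A2780 libraries of the low group carry an shRNA. Each culture is represented by 1 library, so single values have no error, and every p measures the spread between different constructs.

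COL11A1 itself stood at 297 FPKM in A2780CIS, 8.17 in A2780-COL11A1, 4.23 in A2780-scrambled shRNA and 0.670 in A2780-shCOL11A1, and at 1.67 in OVCAR3-COL11A1 against 0.0258 in OVCAR3-GFP. Relative depth, read from the steps between the lowest values, ranged from 0.501 in OVCAR3-COL11A1 to 1.58 in A2780-COL11A1, with A2780-scrambled shRNA at 1. Absolute depth is unknown. Most epithelial and Müllerian markers that would fit the label of ovarian cancer were present in OVCAR3. There PAX8 was at 83.4 and 50.04 FPKM in OVCAR3-GFP and OVCAR3-COL11A1, WT1 at 21.3 and 18.0 and EPCAM at 206 and 136. In A2780 they were largely absent: WT1 and KRT7 were listed at the table's floor of 0.001 FPKM in all 4 libraries, PAX8 was at most 0.0398 and EPCAM lay between 0.632 and 0.907. Of 10 such identity genes, 7 stayed below 1 FPKM throughout A2780 and 1 throughout OVCAR3. Genes were tested where their mean over the 6 libraries reached 1 FPKM, and called at an adjusted p under 0.05. Of the 8 identity genes tested, 7 were called higher in OVCAR3 and 0 lower, against 19.6% and 25.6% of all genes tested. At least 5 of the 8, those under 1 FPKM in every A2780 library, were abundant enough to test only through OVCAR3. There a higher level had to follow. KRT8 was not counted among them, though it passed 1 FPKM in A2780 only in A2780-COL11A1, at 1.19. In A2780CIS the keratin gene KRT18 was at 44.8 FPKM against 3.24 to 5.11 in the other A2780 libraries. Of the 8 differences between A2780CIS and those libraries, 3 were above 0. The median log2 level of the tested genes, relative to the average of the libraries, was -0.18 in OVCAR3-GFP at its lowest and 0.11 in A2780-shCOL11A1 at its highest.

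The factors work as activators and repressors of the epithelial state. SNAI1 and SNAI2 (Snail and Slug) are zinc finger repressors, ZEB1 and ZEB2 are zinc finger and homeodomain repressors, and all 4 bind E-boxes, the sequence CANNTG, in particular CAGGTG or its reverse complement CACCTG, in promoters such as that of the E-cadherin gene CDH1. TWIST1 and TWIST2 are basic helix-loop-helix factors that pair with E proteins, and PRRX1 is a homeodomain factor of mesenchyme. GRHL2, a grainyhead factor, acts on the other side: it keeps epithelial genes active and opposes ZEB1. E-cadherin holds epithelial cells together, and N-cadherin, the product of CDH2, often replaces it in mesenchymal, neural and many tumour cells.

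RefSeq sequence before the transcription start was matched for 5 of the 10 members. The 250 bases before the most upstream start (GRCh38.p14, 5′ to 3′ on the gene's strand) are shown for ZEB1, a repressor gene that differed between the lines, and for 3 genes that differed between A2780CIS and the other A2780 cultures, with every CANNTG in capitals.
ZEB1, chr10:31318167-31318416, plus strand: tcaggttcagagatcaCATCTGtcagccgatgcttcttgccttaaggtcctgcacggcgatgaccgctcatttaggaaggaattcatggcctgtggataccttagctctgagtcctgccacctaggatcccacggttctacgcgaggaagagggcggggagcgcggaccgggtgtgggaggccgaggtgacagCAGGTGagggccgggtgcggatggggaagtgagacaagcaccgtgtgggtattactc
TWIST2, chr2:238847835-238848084, plus strand: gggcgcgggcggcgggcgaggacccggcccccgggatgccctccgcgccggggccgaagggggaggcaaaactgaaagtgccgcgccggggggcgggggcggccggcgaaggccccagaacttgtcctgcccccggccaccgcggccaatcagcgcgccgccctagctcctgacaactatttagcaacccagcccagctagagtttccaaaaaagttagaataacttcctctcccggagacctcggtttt
PRRX1, chr1:170663881-170664130, plus strand: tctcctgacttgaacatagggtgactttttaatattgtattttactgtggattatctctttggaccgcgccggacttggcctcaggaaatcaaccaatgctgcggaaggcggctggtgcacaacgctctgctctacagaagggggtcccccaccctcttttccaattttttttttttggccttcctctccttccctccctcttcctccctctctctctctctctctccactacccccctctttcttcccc
CDH2, chr18:28177131-28177380, minus strand: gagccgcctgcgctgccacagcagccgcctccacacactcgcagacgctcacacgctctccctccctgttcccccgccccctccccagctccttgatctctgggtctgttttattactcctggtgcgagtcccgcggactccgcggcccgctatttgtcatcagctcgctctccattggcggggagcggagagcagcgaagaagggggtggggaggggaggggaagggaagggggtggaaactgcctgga

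The ZEB1 window held 2 E-boxes, of which the CAGGTG begins 57 bases before the start. The windows of TWIST2, PRRX1 and CDH2 held none of these letters. ZEB1 has 7 start sites in the table of promoters; CANNTG was found before 4 of them and CAGGTG or CACCTG before 2. Among all 35116 windows of the same length, searched for both strands, 61.8% held CANNTG and 17.5% held CAGGTG or CACCTG, which is part of CANNTG. These matches describe letters only.

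Among the repressors, ZEB1 (chromosome 10, 31608100 to 31818742 in GRCh37, the build of the table's loci) divided the lines. It was at 11.1 FPKM in A2780-scrambled shRNA, 13.7 in A2780-shCOL11A1, 10.1 in A2780-COL11A1 and 15.9 in A2780CIS, and at 0.0214 in OVCAR3-GFP and 0.0977 in OVCAR3-COL11A1. All 4 A2780 libraries lay above both OVCAR3 libraries, the nearest of them by 103-fold. On the scale log2(FPKM + 1), used for every difference and test below, ZEB1 was lower in OVCAR3 than in A2780 by -3.67 ± 0.27 (SE, limma, adjusted p = 4.91e-04). ZEB1 reached the minimum for testing only through A2780. In a bulk library fewer cells of a type and less RNA per cell cannot be told apart. Lines differ widely: 45.2% of the 12841 genes tested (those whose mean reached 1 FPKM) passed this test at an adjusted p under 0.05, 19.6% higher and 25.6% lower in OVCAR3, and the differences of single members stand against that background.

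ZEB2 (chromosome 2, 145141941 to 145277958) was near the bottom of the table everywhere. It lay between 0.0102 FPKM in A2780CIS and 0.0625 in A2780-scrambled shRNA, did not reach the mean of 1 FPKM needed for testing, and overlaps the entry ZEB2-AS1. ZEB1 thus made up 99.4% or more of the summed ZEB level in each A2780 library. The miR-200 microRNAs, which in epithelial cells act on ZEB mRNAs, were not measured: their 5 loci were listed at 0.001 FPKM in all 6 libraries, and poly-A selected libraries do not capture mature microRNAs.

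GRHL2 (chromosome 8, 102504667 to 102681952) had the reverse distribution. It was at 14.1 FPKM in OVCAR3-GFP and 19.8 in OVCAR3-COL11A1, and was listed at 0.001 in all 4 A2780 libraries. The difference between the lines was 4.15 ± 0.23 (limma, adjusted p = 2.67e-04). No fold is given against values at the floor of the table, and GRHL2 reached the minimum for testing only through OVCAR3.

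CDH1 (chromosome 16, 68771194 to 68869444) followed GRHL2. E-cadherin mRNA was at 48.2 FPKM in OVCAR3-GFP and 16.0 in OVCAR3-COL11A1, and at 0.0593, 0.0675, 0.0468 and 0.0199 in A2780-scrambled shRNA, A2780-shCOL11A1, A2780-COL11A1 and A2780CIS. The lower OVCAR3 library was 238-fold above the highest A2780 library. The difference between the lines was 4.79 ± 0.38 (limma, adjusted p = 6.10e-04); CDH1, too, reached the minimum only through OVCAR3. Multiplied by relative depth, the A2780 values stood in the proportion 4 to 4 to 5 to 1, so differences among them are steps of very few fragments.

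The other cadherin did not take the opposite course. CDH2 (chromosome 18, 25530929 to 25757445) was at 7.30 FPKM in OVCAR3-GFP and 8.68 in OVCAR3-COL11A1, at 5.94 in A2780CIS, and at 0.920, 0.579 and 0.218 in A2780-scrambled shRNA, A2780-shCOL11A1 and A2780-COL11A1. N-cadherin mRNA was therefore highest in the line that also had E-cadherin mRNA, and OVCAR3 and A2780 did not overlap, as was the case for 61.0% of genes tested. CDH1 made up 86.9% of the sum of both cadherins in OVCAR3-GFP and 64.9% in OVCAR3-COL11A1; in A2780, where the sum was small, it was between 0.333% in A2780CIS and 17.7% in A2780-COL11A1. With all 4 A2780 libraries on one side, CDH2 differed by 1.99 ± 0.68 and missed the threshold (limma, adjusted p = 0.0586).

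**Figure D1:**
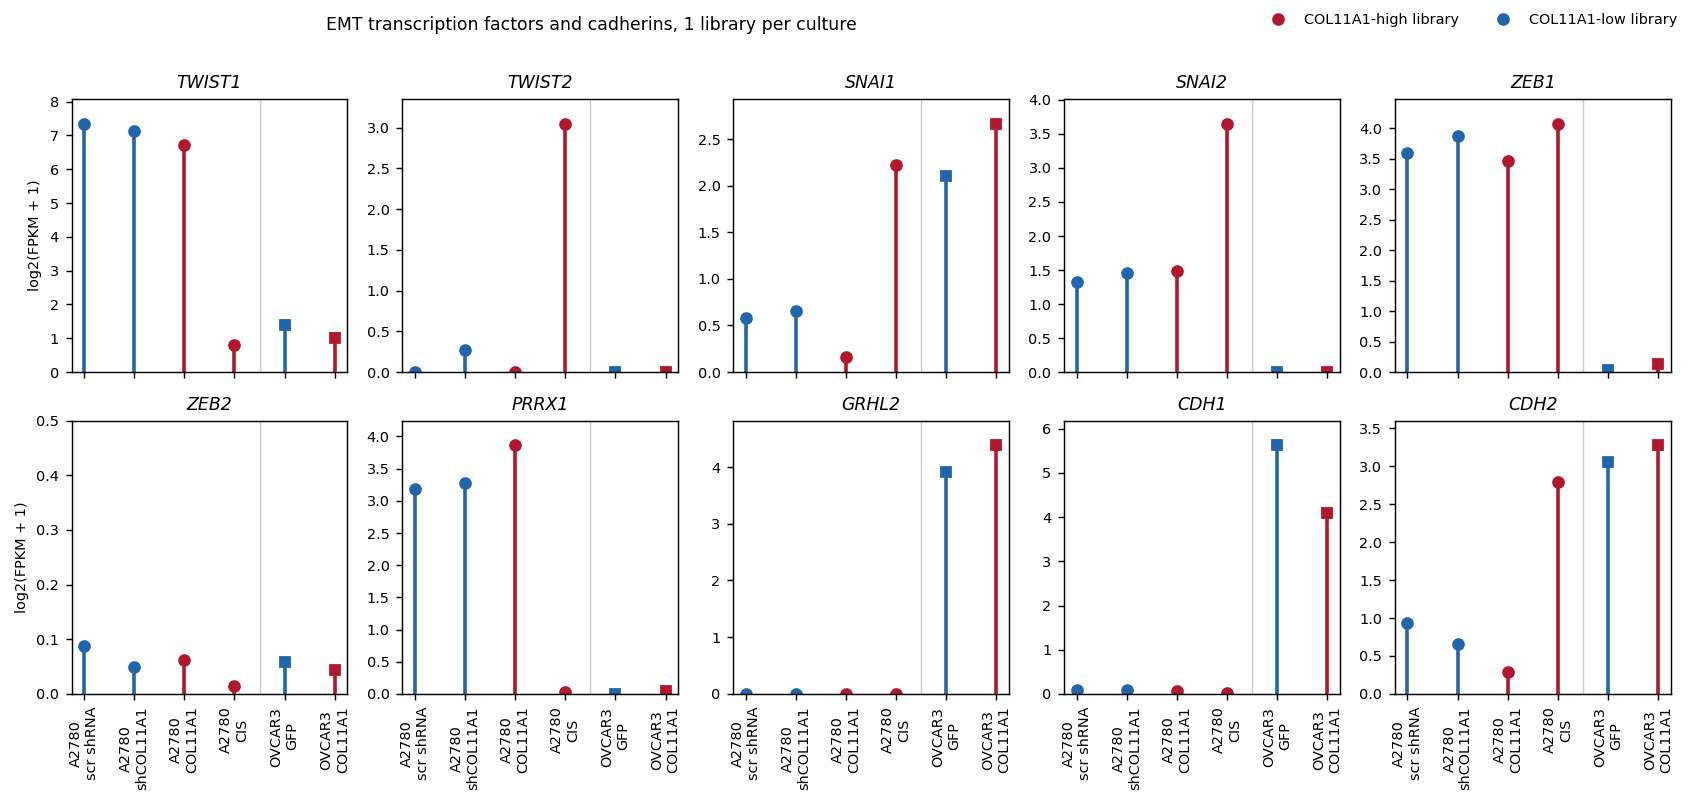
Level of each of the 10 genes, as log2(FPKM + 1) on the vertical axis, in the 6 libraries, 1 library per culture; red marks COL11A1-high and blue COL11A1-low libraries, circles A2780 and squares OVCAR3, and each panel has its own scale. ZEB1 is high in the 4 A2780 libraries, GRHL2 and CDH1 in the 2 OVCAR3 libraries, and A2780CIS departs from the other A2780 libraries in TWIST1, TWIST2, SNAI1, SNAI2, PRRX1 and CDH2.

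TWIST1 (chromosome 7, 19155090 to 19157295) was the most abundant member in A2780 and was nearly lost in A2780CIS. It was at 162 FPKM in A2780-scrambled shRNA, 138 in A2780-shCOL11A1 and 104 in A2780-COL11A1, against 0.751 in A2780CIS, 1.64 in OVCAR3-GFP and 1.03 in OVCAR3-COL11A1. In the first 3 libraries TWIST1 stood at or above the 96.8th percentile of all genes kept, and A2780CIS was 138-fold below the lowest of them and below both OVCAR3 libraries. A fit with A2780CIS as a term of its own, 1 library against the 3 other A2780 libraries and assumed to vary like them, gave -6.25 ± 0.32 (limma, adjusted p = 1.99e-04). In that fit 11.1% of genes passed, 5.69% higher and 5.43% lower in A2780CIS.

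PRRX1 (chromosome 1, 170633312 to 170708541) fell with TWIST1. It was at 8.10 FPKM in A2780-scrambled shRNA, 8.74 in A2780-shCOL11A1 and 13.5 in A2780-COL11A1, against 0.0241 in A2780CIS. OVCAR3-COL11A1 had 0.0359, and OVCAR3-GFP was listed at 0.001. PRRX1 thus reached the minimum for testing only through the A2780 libraries other than A2780CIS, which fixes the direction of a difference from them. A2780CIS was 336-fold below the nearest of the other A2780 libraries, and the difference was -3.41 ± 0.33 (limma, adjusted p = 0.00164).

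TWIST2 (chromosome 2, 239756672 to 239832237) was seen at a level above 1 FPKM only in A2780CIS. There it was at 7.29 FPKM, against 0.205 in A2780-shCOL11A1 and 0.001, the floor, in the other 4 libraries. The difference was 2.96 ± 0.22 (limma, adjusted p = 5.76e-04), and TWIST2 reached the minimum for testing through A2780CIS alone. Within the TWIST pair, TWIST1 made up 9.34% of the summed level in A2780CIS and 99.9% in A2780-shCOL11A1, with higher shares in the other 4 libraries.

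SNAI2 (chromosome 8, 49830238 to 49833999) was an A2780 gene that rose further in A2780CIS. It was at 1.51, 1.76 and 1.79 FPKM in A2780-scrambled shRNA, A2780-shCOL11A1 and A2780-COL11A1 and at 11.6 in A2780CIS, and was listed at 0.001 in both OVCAR3 libraries. A2780CIS lay 6.47-fold above the highest of the other A2780 libraries (2.23 ± 0.23, limma, adjusted p = 0.00195). OVCAR3 was below A2780 by -1.98 ± 0.64 (limma, adjusted p = 0.0492), and SNAI2 reached the minimum only through A2780, which fixes that direction. The call was lost without A2780-scrambled shRNA (adjusted p = 0.0852), without A2780-shCOL11A1 (0.0929), without OVCAR3-GFP (0.145) and without OVCAR3-COL11A1 (0.365), and with median scaling of the libraries (0.0691) or no minimum level (0.158).

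SNAI1 (chromosome 20, 48599512 to 48605420) had the same 3 libraries at its upper end as CDH2. It was at 5.35 FPKM in OVCAR3-COL11A1, 3.66 in A2780CIS and 3.30 in OVCAR3-GFP, and at 0.5005, 0.569 and 0.115 in A2780-scrambled shRNA, A2780-shCOL11A1 and A2780-COL11A1. The order among the upper 3 was not that of CDH2, in which A2780CIS was the lowest of them. A2780CIS differed from the other A2780 libraries by 1.75 ± 0.33 in SNAI1 (limma, adjusted p = 0.0204) and by 2.17 ± 0.32 in CDH2 (limma, adjusted p = 0.00862). The SNAI1 call was lost without A2780-scrambled shRNA (adjusted p = 0.0604) and without A2780-shCOL11A1 (0.0541), and both calls were lost with no minimum level (0.0951 for SNAI1 and 0.0582 for CDH2).

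ZEB1 and CDH1 did not pass in this comparison. The fit took part of its spread from the OVCAR3 pair, in which CDH1 was at 48.2 and 16.0 FPKM. A2780CIS differed from the other A2780 libraries by 0.43 ± 0.28 in ZEB1 (limma, adjusted p = 0.373) and by -0.05 ± 0.54 in CDH1 (limma, adjusted p = 0.979), and GRHL2 was at the floor throughout A2780. Both ZEB1 and CDH1 in A2780CIS lay outside the range of the other A2780 libraries, as did 75.2% of genes. The summed level of the 6 TWIST, SNAI and ZEB genes was 39.2 FPKM in A2780CIS against 116 to 175 in the other A2780 libraries and 5.004 and 6.51 in OVCAR3. The make-up changed as well as the sum, since ZEB1, SNAI2 and TWIST2 were the 3 highest of the 6 in A2780CIS and TWIST1 was the highest in the other A2780 libraries.

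Because A2780CIS departs from its line, a comparison of OVCAR3 with A2780 depends on whether it counts as A2780. PRRX1 reached the minimum for testing only through the A2780 libraries other than A2780CIS, so its direction here was fixed in advance. SNAI1 would not have reached the minimum with OVCAR3 at the level of those libraries. The direction of SNAI1 against those libraries was therefore fixed as well. With all 4 A2780 libraries, TWIST1 was lower in OVCAR3 by -4.29 ± 1.64, SNAI1 higher by 1.48 ± 0.57 and PRRX1 lower by -2.57 ± 1.03, and none passed (limma, adjusted p = 0.0782, 0.0774 and 0.0893). With A2780CIS as its own term, a fit chosen after the values were seen, in which 57.1% of genes passed (24.1% higher and 33.0% lower in OVCAR3), the differences were -5.85 ± 0.25, 1.92 ± 0.26 and -3.42 ± 0.26, and CDH2 was higher in OVCAR3 by 2.54 ± 0.25. All 4 then passed (limma, adjusted p = 2.08e-05 for TWIST1, 0.00119 for SNAI1, 1.14e-04 for PRRX1 and 3.32e-04 for CDH2). TWIST2 differed by -0.09 ± 0.17 in that fit (limma, adjusted p = 0.681).

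**Figure D2:**
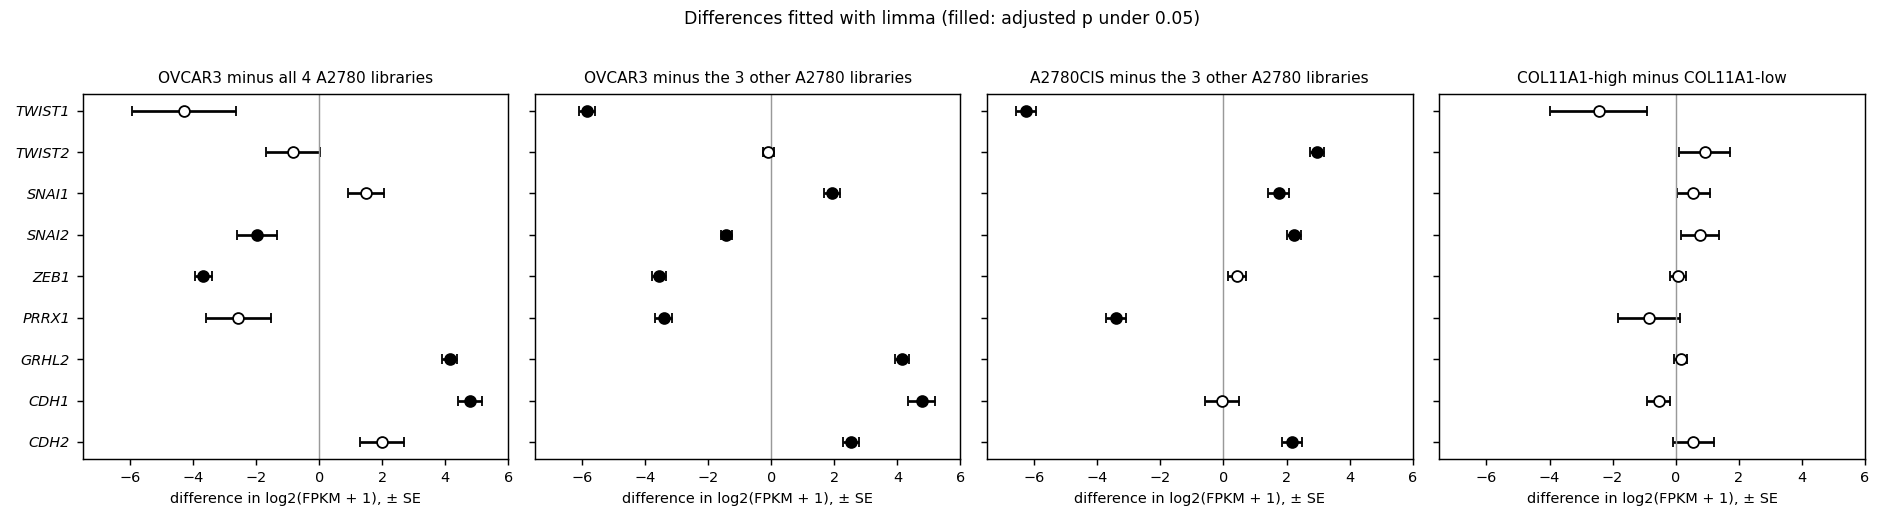
Differences in log2(FPKM + 1) on the horizontal axis, with bars of 1 SE from limma, for the 9 genes that reached the minimum level; filled points passed at an adjusted p under 0.05. From left to right the panels set OVCAR3 against all 4 A2780 libraries, OVCAR3 against the 3 A2780 libraries other than A2780CIS, A2780CIS against those 3, and COL11A1-high against COL11A1-low; SEs of TWIST1 and PRRX1 are widest where A2780CIS is pooled with other A2780 libraries.

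The comparison of COL11A1-high with COL11A1-low libraries, with line as a term, called no member, and 0% of all 12841 genes passed (limma; 832 genes, 6.48%, had an unadjusted p under 0.05). TWIST1 had the largest difference, at -2.44 ± 1.55 (limma, adjusted p = 0.731), followed by TWIST2 at 0.93 ± 0.81 and PRRX1 at -0.84 ± 0.97. These values rest on A2780CIS: without it TWIST1 was at -0.46, TWIST2 at -0.08 and PRRX1 at 0.38, and SNAI1 and CDH2 went from 0.57 and 0.57 to -0.02 and -0.20. CDH1 differed by -0.54 ± 0.35 (limma, adjusted p = 0.731), and by -0.04 when either OVCAR3 library was left out. The interaction of group and line passed for 0% of genes (limma; 13.6% at an unadjusted p under 0.05), and CDH1 had -1.49 ± 0.22 there (limma, adjusted p = 0.306).

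In OVCAR3, CDH1 was lower in OVCAR3-COL11A1 than in OVCAR3-GFP, at 0.332 of its level. This was the only member to reach a 2-fold difference on that scale in the pair, where 4.18% of genes were at least 2-fold lower and 6.79% higher. SNAI1 stood at a ratio of 1.62, GRHL2 at 1.41, CDH2 at 1.19 and TWIST1 at 0.627. This is 1 library against 1, with no replicate check, and relative depth was 0.501 in OVCAR3-COL11A1 against 1.14 in OVCAR3-GFP; the part of depth in these ratios was not tested.

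In A2780, the transgene and the shRNA went with differences below 2-fold in TWIST1, PRRX1, ZEB1 and SNAI2. A2780-COL11A1 had 0.640 of the TWIST1 level of A2780-scrambled shRNA, 1.67 times its PRRX1, 0.911 of its ZEB1 and 1.19 times its SNAI2. CDH2 and SNAI1, both below 1 FPKM, were at 0.237 and 0.230 of that control. Relative depth was 1.58 in A2780-COL11A1 against 1 in A2780-scrambled shRNA, and its part in these low values was not tested. Against A2780-shCOL11A1 as the control the ratios were 0.753 for TWIST1, 1.55 for PRRX1, 0.376 for CDH2 and 0.202 for SNAI1, so both choices of control gave the same direction for these genes. A2780-shCOL11A1 itself stood at 0.850 of A2780-scrambled shRNA in TWIST1, 1.23 in ZEB1 and 0.630 in CDH2. No member differed by 2-fold on the scale log2(FPKM + 1) in either pair with the scrambled control, in which 0.849% of genes were at least 2-fold higher and 1.91% lower in A2780-COL11A1, and 0.179% and 0.195% in A2780-shCOL11A1. With a pseudocount of 0.1 the differences of A2780-COL11A1 were -1.68 for CDH2 and -1.48 for SNAI1, past 2-fold, and that of A2780-shCOL11A1 was 1.59 for TWIST2, whose control was at the floor. The A2780 pairs share a control and have no test.

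With the A2780 libraries in order of COL11A1 (A2780-shCOL11A1, A2780-scrambled shRNA, A2780-COL11A1, A2780CIS), CDH1 was the only member to fall at each step, from 0.0675 to 0.0199 FPKM, and no member rose at each step; 11.9% of tested genes fell and 7.83% rose at each step. The CDH1 values there are steps of very few fragments. Multiplied by relative depth they stood at 4, 4, 5 and 1 times the A2780CIS value in that order, which is not a fall at each step.

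Genes beside the members on the chromosome were looked at after the values were seen. HDAC9, a histone deacetylase gene whose listed locus ends 118 kb below TWIST1, was at 42.2, 46.8 and 22.4 FPKM in A2780-scrambled shRNA, A2780-shCOL11A1 and A2780-COL11A1 and was listed at 0.001 in A2780CIS. In OVCAR3, where TWIST1 was near 1 FPKM, HDAC9 was at 10.6 and 22.8. Farther out, SNX13 was at 9.76 FPKM in A2780CIS against 8.99 to 9.58 in the other A2780 libraries, and TWISTNB at 12.3 against 8.79 to 14.3. Values at the floor can be failed estimates: 51 of 6617 genes with a median of at least 10 FPKM were listed at the floor in some library.

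CDH3, the P-cadherin gene 38.2 kb below CDH1, went with CDH1 across the lines, at 33.7 and 23.4 FPKM in OVCAR3 and 0.180 to 0.268 in A2780. TANGO6, on the other side of CDH1 at 8.06 kb, had the opposite order, with 0.596 and 1.09 FPKM in OVCAR3 and 4.81 to 8.51 in A2780. Beside GRHL2, NCALD at 16.8 kb was at 6.97 and 6.95 FPKM in OVCAR3 and at most 0.102 in A2780. Beside PRRX1, GORAB at 110 kb was at 6.42 FPKM in A2780CIS against 5.76 to 5.96 in the other A2780 libraries. Farther out on the same side, KIFAP3 at 589 kb was lower in A2780CIS, at 10.4 FPKM against 26.2 to 28.8. In OVCAR3-GFP and OVCAR3-COL11A1 KIFAP3 was at 6.94 and 5.74.

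**Figure D3:**
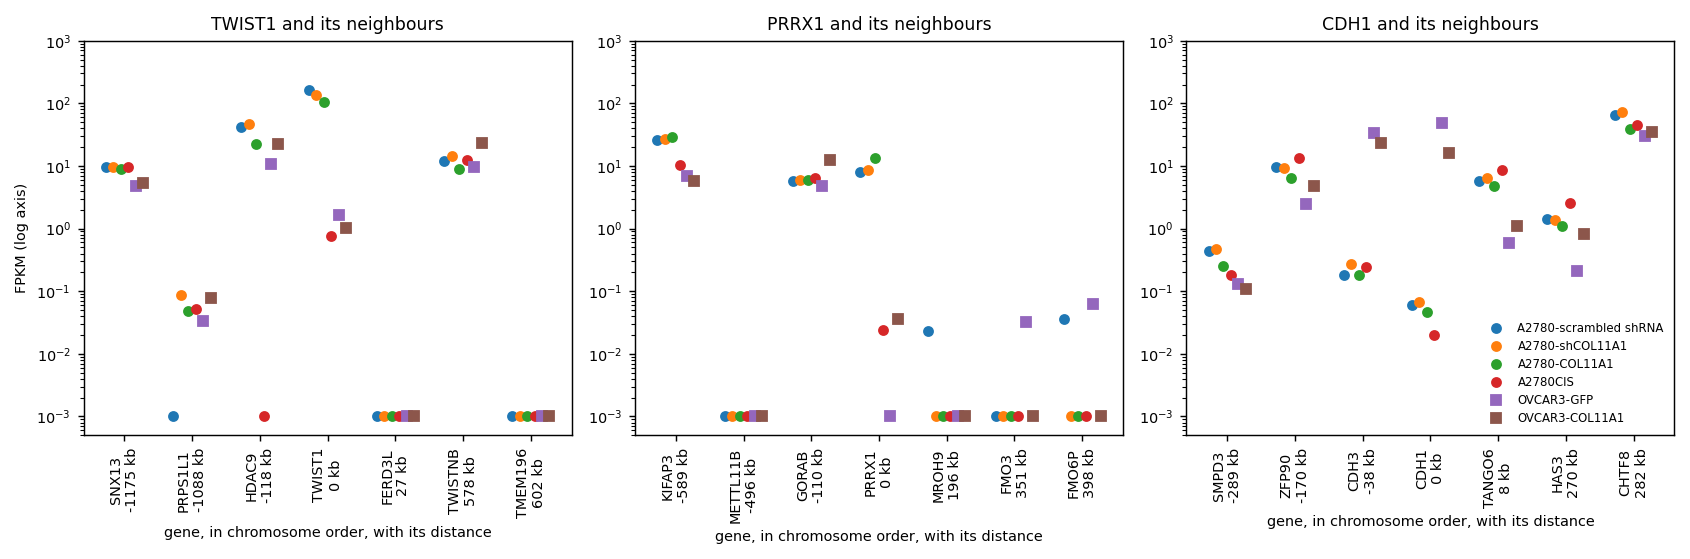
FPKM on a log axis for TWIST1, PRRX1 and CDH1 and the 3 nearest listed genes on each side, in chromosome order with the distance in kb (unnamed loci, antisense genes and small RNAs left out); circles are A2780 and squares OVCAR3 libraries, and 0.001 is the lowest listed value. HDAC9 is at 0.001 in A2780CIS, as TWIST1 is low there, while SNX13 and TWISTNB are near the other A2780 libraries.

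The genes with the most similar pattern were found by the root mean square difference of centred log2(FPKM + 1) over the 6 libraries, among 8388 protein-coding genes whose mean reached 5 FPKM. For CDH1 these were EHF, an epithelial ETS factor (0.05), PXDN (0.14) and the kallikrein gene KLK6 (0.15); EHF was at 41.9 and 15.3 FPKM in OVCAR3-GFP and OVCAR3-COL11A1 and at the floor in all 4 A2780 libraries. For GRHL2 they were FAM83G and SVIP (0.07 each) and MARVELD2, which encodes a protein of tricellular tight junctions (0.09). For ZEB1 they were CIB2, RPP25 and DBNDD2 (0.11 to 0.13). For TWIST1 they were MAB21L2 (0.24), the retinol transporter gene STRA6 (0.31) and the chemokine receptor gene CCR1 (0.33), and for PRRX1 LARP6, whose product binds collagen mRNAs (0.15), SLC7A3 (0.19) and MAP2K6 (0.23). The nearest genes were SMOX for TWIST2 (0.16), SOCS6 for SNAI2 (0.09), ISOC1 for SNAI1 (0.15) and CEP55 for CDH2 (0.26). With 6 libraries of 2 lines, many genes share such patterns.

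Genes of the epithelial program that GRHL2 and E-cadherin belong to differed between the lines together. Of 30 listed genes 29 were tested. In OVCAR3 27 were higher and 0 lower (limma, adjusted p under 0.05), against 19.6% and 25.6% of all genes tested. The median difference was 3.68 against -0.15 over all genes tested. ESRP1, a splicing regulator of epithelial isoforms, was at 113 and 111 FPKM in OVCAR3 and at most 0.421 in A2780 (6.43 ± 0.22), and the protease inhibitor gene SPINT2 was at 1355 and 767 against at most 1.43 (9.22 ± 0.40). Of the 29, at least 18, those under 1 FPKM in every A2780 library, reached the minimum through OVCAR3, where a difference had to follow. SPINT2 was not counted among them, though it passed 1 FPKM in A2780 only in A2780CIS. In A2780CIS against the other A2780 libraries the median was -0.02 against -0.05 over all genes tested, and 12 of the 29 differences were above 0. LLGL2, a polarity gene, was at 6.30 FPKM there against 1.76 to 2.34 (1.29 ± 0.33), a difference that did not pass. Their summed level was 26.3 to 33.0 FPKM over the 4 A2780 libraries.

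Mesenchymal genes were lower in OVCAR3 for 11 of 23 tested, and 1, the matrix gene TNC, was higher (median -1.07 against -0.15 over all genes tested, of which 25.6% were lower and 19.6% higher). Of the 23, 5 were under 1 FPKM in both OVCAR3 libraries, and TNC in all 4 A2780 libraries, so each of these reached the minimum through the other line. THY1, a mesenchymal surface antigen, was at 25.5 to 66.9 FPKM in A2780 and at most 0.124 in OVCAR3 (-5.33 ± 0.33). VIM, the intermediate filament vimentin, was at 720, 541 and 718 FPKM in A2780-scrambled shRNA, A2780-shCOL11A1 and A2780-COL11A1, at 3897 in A2780CIS, and at 6.07 and 3.25 in OVCAR3. In A2780CIS this list split. VIM (2.57 ± 0.34), the integrin gene ITGAV (1.52 ± 0.24) and COL3A1 (2.29 ± 0.45) were higher than in the other A2780 libraries. The matrix genes POSTN (-4.46 ± 0.44) and COL1A1 (-1.47 ± 0.31) were lower. Of the 23 differences there, 11 were above 0, and the median was -0.07 against -0.05 over all genes tested.

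Cadherins and their cytoplasmic partners, the catenins, differed too. OVCAR3 had CDH6, the kidney cadherin, at 63.2 and 58.5 FPKM and CDH3 at 33.7 and 23.4, both beyond CDH2, and the alpha-catenin gene CTNNA1 was higher there (1.67 ± 0.25). Of 10 tested genes of this list 3 were higher and 2 lower in OVCAR3, against 19.6% and 25.6% of all genes tested. CDH3 and CDH6 reached the minimum only through OVCAR3, and another 2 of the 10 only through A2780. In A2780CIS the neural alpha-catenin gene CTNNA2 was at 0.0502 FPKM against 6.53 to 8.68 in the other A2780 libraries (-2.98 ± 0.29). The plakoglobin gene JUP was at 4.79 against 25.1 to 43.0 (-2.62 ± 0.46), and the cadherin gene CDH12 was lower by -1.89 ± 0.33. CTNND1, p120-catenin, was higher by 0.96 ± 0.22. Of the 10 differences in A2780CIS, 4 were above 0. CDH12 reached the minimum for testing only through the A2780 libraries other than A2780CIS, which fixes its direction.

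**Figure D4:**
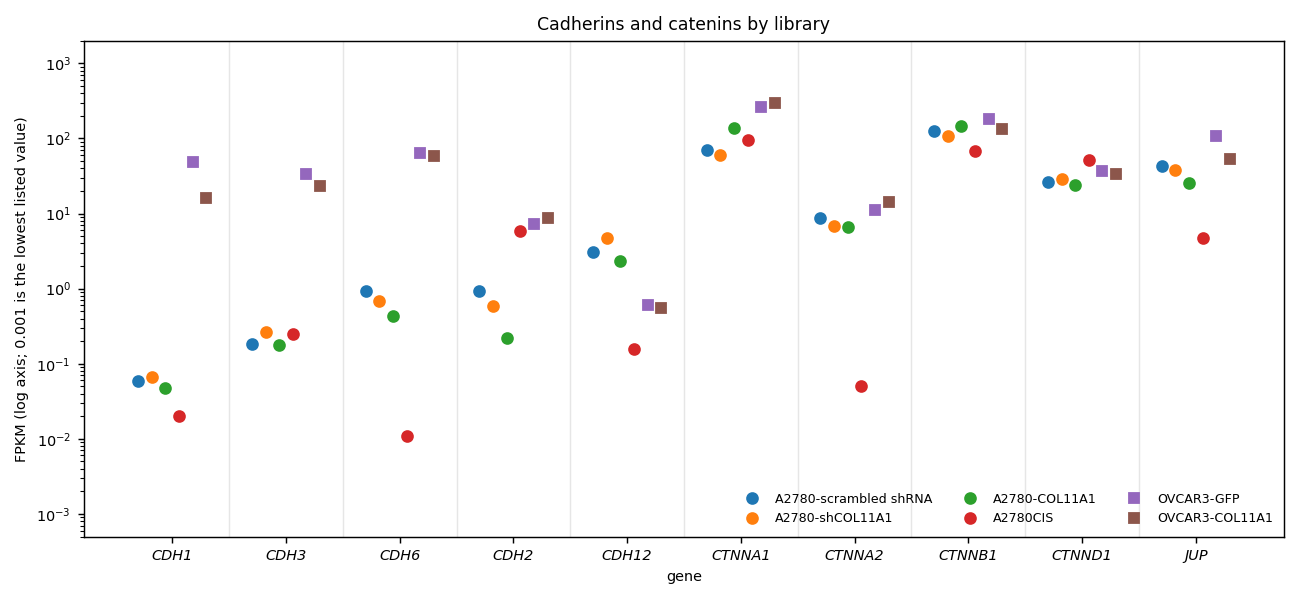
FPKM on a log axis for 5 cadherin and 5 catenin genes in the 6 libraries, circles for A2780 and squares for OVCAR3. CDH1, CDH3 and CDH6 are at least 62.3-fold apart between the lines, CDH2 in A2780CIS lies near OVCAR3, and CTNNA2 and JUP are lowest in A2780CIS.

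Partners of the factors were present in every library, since all 23 listed genes of this kind were at 1 FPKM or more in each. Products of the ID genes bind E proteins and keep helix-loop-helix factors such as TWIST from pairing with them. Of the 4 ID genes, 3 rose in A2780CIS: ID1 was at 36.9 FPKM against 2.99 to 6.49 (2.75 ± 0.36), ID2 at 17.7 against 2.002 to 4.50 (2.19 ± 0.35) and ID3 at 80.5 against 15.5 to 20.2 (2.17 ± 0.26; limma, adjusted p = 0.00516, 0.0118 and 0.00365). ID4 was at 15.9 FPKM in A2780CIS against 38.6 to 55.7 in the other A2780 libraries, a difference of -1.45 ± 0.54 that did not pass (limma, adjusted p = 0.146). Over the whole list, 9 of the 23 differences in A2780CIS were above 0, and the median was -0.05, as it was over all genes tested. In OVCAR3 ID1 and ID2 were higher still, at 332 and 372 and at 159 and 173 FPKM (5.28 ± 0.86 and 4.79 ± 0.57), and 5 of the 23 were called higher and 5 lower there, shares near the 19.6% and 25.6% of all genes tested. SIN3A, a scaffold of corepressor complexes, was lower in OVCAR3 by -1.83 ± 0.21.

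Among signals and other factors of EMT, 7 of 20 tested genes were higher and 8 lower in OVCAR3 (median -0.30), against 19.6% and 25.6% of all genes tested. Of the 20, 4 were under 1 FPKM throughout A2780 and 1 throughout OVCAR3, and reached the minimum through the other line. HMGA2, a chromatin factor that acts on SNAI1 and TWIST1, was lower by -3.85 ± 0.20, and the ligand and receptor genes TGFB2 and TGFBR2 were higher by 3.43 ± 0.28 and 2.82 ± 0.31. In A2780CIS TGFB1 rose, at 76.8 FPKM against 18.7 to 21.8 (1.86 ± 0.24; limma, adjusted p = 0.00521).

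Markers of stromal, endothelial and immune cells were given by 14 genes, 4 of them abundant enough to test and 5 of them also on the lists above. In A2780CIS COL3A1 (2.29 ± 0.45) and the macrophage marker CD68 (1.15 ± 0.26) were higher than in the other A2780 libraries. COL1A1 (-1.47 ± 0.31) and PDGFRA were lower. CD68 reached the minimum for testing only through A2780CIS, and PDGFRA only through the A2780 libraries other than A2780CIS, which fixes those directions. Of the 4, 2 were lower in OVCAR3, against 25.6% of all genes tested. In all, 3 of the 4 were under 1 FPKM in both OVCAR3 libraries and reached the minimum through A2780. PECAM1, CDH5, PTPRC and CD3E, which define endothelium, blood cells and T cells, were at or below 0.115 FPKM in all 6 libraries. Other markers of such cells were higher. The endothelial gene VWF reached 0.395 FPKM in OVCAR3-COL11A1. The monocyte marker CD14 was at 2.47 and 2.65 FPKM in OVCAR3-GFP and OVCAR3-COL11A1 and at most 0.0587 in A2780. The summed level of the 14 was 128 to 556 FPKM in A2780 and 7.57 to 11.7 in OVCAR3, and in A2780 COL3A1 and PDGFRA gave most of it. PDGFRA, a receptor of mesenchymal cells, was at 44.1 to 66.1 FPKM in the A2780 libraries other than A2780CIS and at 1.42 in A2780CIS (-4.52 ± 0.30, limma, adjusted p = 3.65e-04), the direction of TWIST1 and PRRX1; the part of these markers in the values of the members was not tested.

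**Figure D5:**
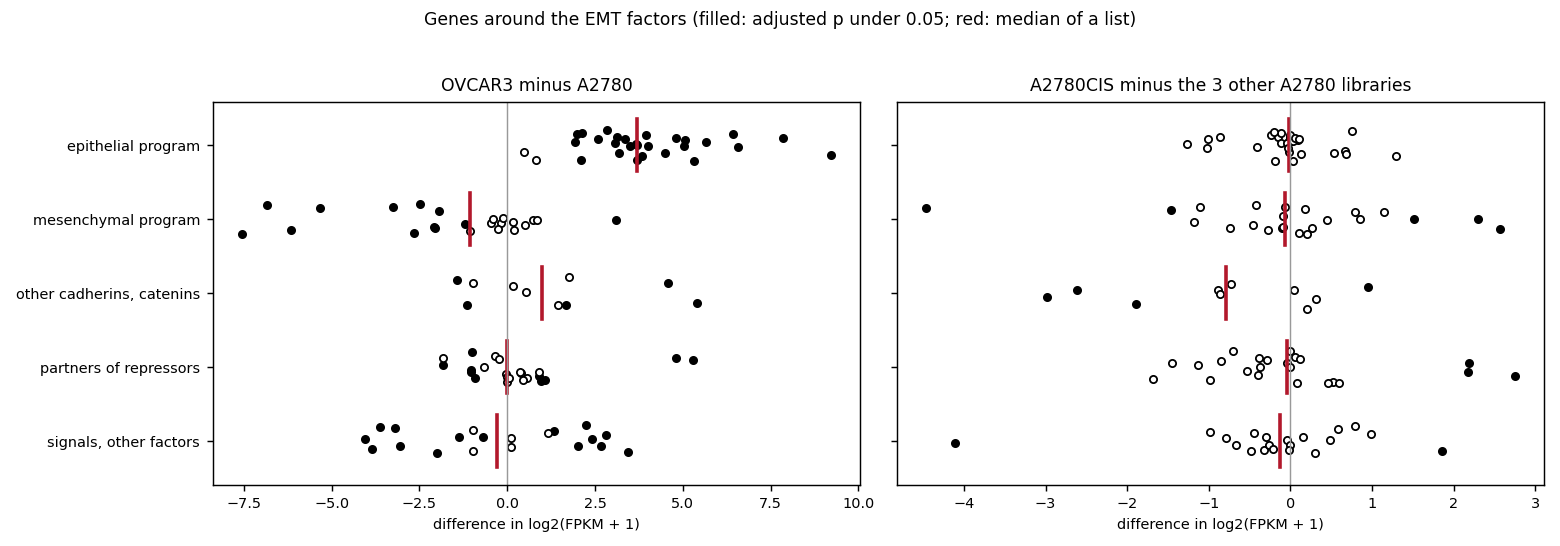
Differences in log2(FPKM + 1) for genes of 5 lists, 1 point per tested gene, filled where the adjusted p was under 0.05, with a red bar at the median of each list. On the left, OVCAR3 against A2780, the epithelial list lies to the right of 0 with a median of 3.68. On the right, A2780CIS against the other A2780 libraries, its median is -0.02.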

How the data were processed

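Poly-A selected RNA of 6 cultures was made into libraries with a stranded kit, 1 for each culture, per the labels' protocols. The deposited values are FPKM, per the file headers; which program made them is not given in the sources used here. Per the submitters' processing notes, STAR 2.5.0, RSEM 1.2.25 and GRCh38 were used, whereas the loci in the deposited table are those of GRCh37. Whether counting used strand is not given in the sources used here. The lowest listed value is 0.001.

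Of 25275 entries, those off the main chromosomes (1304), marked LOWDATA in every library (274) or FAIL in some library (2), with names turned to dates (28), or with names at several loci (306 names) were set aside, leaving 23145 genes. Groups follow the series' design text. Differences were fitted with limma 3.58.1 (R 4.3.3) on log2(FPKM + 1), with a trended prior, for the 12841 genes whose mean reached 1 FPKM, and p-values were adjusted over them by Benjamini-Hochberg at 5%; a fold on this scale understates the change of low genes. COL11A1 group and line were terms of 1 fit, and A2780CIS against the other A2780 libraries was another with line as a term. The latter used all 6 libraries, so the OVCAR3 pair gave part of its spread. Pairs of single libraries have no test and were called at 2-fold. Alternatives were a pseudocount of 0.1, no minimum, a mean of at least 5 FPKM, median scaling, quantile normalization and leaving out each library.

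In simulated data with 200 changed genes, the fit recovered 54.8% of log2 changes of 2 and 88.7% of 4 for A2780CIS, 61.5% and 88% for COL11A1-high against COL11A1-low, 56.1% and 88.6% for OVCAR3 against A2780, and 0.4% and 18.6% for the interaction, each in 12841 genes. The members and lists were chosen with earlier results of these data known. Named were all members and, from each list, up to 5 genes by the smallest p among those that passed in a comparison, or the smallest p where none passed; identity and other-cell markers could all be named. Neighbouring genes, cadherin levels by library and the miR-200 loci were added after that rule. The value of 1 gene on the lists is not reported here.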

Additional observations from a re-analysis of the deposited data

Results flagged for a closer look

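Among the 4 A2780 libraries, A2780CIS stood far from the other 3 in log2(FPKM + 1) of TWIST1, TWIST2 and SNAI2, with the gap to the nearest library at 0.902, 0.912 and 0.934 of the whole range, beyond Dixon's limit. Chance flags about 1 in 20 groups; here 13.4% of the 12841 genes had such a library, and in 10.8% it was A2780CIS.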

How the results depend on the processing

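TWIST1, TWIST2, SNAI2 and PRRX1 in A2780CIS, and ZEB1, GRHL2 and CDH1 between the lines, kept their calls under every alternative run for them; TWIST2 and SNAI2 had no value with a mean of at least 5 FPKM. For TWIST2, PRRX1, ZEB1, GRHL2 and CDH1 the minimum level was reached through the group where they are high, which fixes the direction. Between the lines 5810 genes passed, and 3181 to 7346 when a library was left out; in A2780CIS 1428 passed, 715 to 1950 when a library was left out and 855 with a mean of at least 5 FPKM, where fewer genes are tested. The interaction called 0 genes, and 1495 with no minimum; the cause was not tested, and leaving out a library was not run for it. Pairs at 2-fold went from 354 to 769 genes with a pseudocount of 0.1 and to 593 with A2780-shCOL11A1 as the control (A2780-COL11A1), from 48 to 205 (A2780-shCOL11A1) and from 1409 to 2270 (OVCAR3-COL11A1), both with a pseudocount of 0.1. COL11A1-high against COL11A1-low changed direction when a library was left out for ZEB1 (-0.11 to 0.24), TWIST2 (-0.076 to 1.67), SNAI1 (-0.022 to 1.16), PRRX1 (-1.81 to 0.38) and CDH2 (-0.20 to 1.23). CDH1 in A2780CIS was 0.011 under quantile normalization; the interaction was 0.18 for SNAI1 with a pseudocount of 0.1, and -0.15 and -0.10 for ZEB1 under median scaling and quantile normalization. None of these had passed, and the causes were not tested. CDH2 between the lines passed under median scaling (adjusted p = 0.0457) and quantile normalization (0.0410). No paired analysis was possible because the labels give no replicate numbers; those used here follow the order of deposition. Absolute depth is unknown, so values near the floor have no interval.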
